A study of Mus musculus with 12 samples.

Results

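The Schlafen genes of the mouse form a family on chromosome 11, and 7 of them were read out here: Slfn1, Slfn2, Slfn3, Slfn4, Slfn5, Slfn8 and Slfn9. They were found by their Entrez identifiers among the 27179 genes of the deposited count table. The family was singled out because Slfn8 is among the largest falls between 33 h of activation and expanded B cells, so the change of the members at that transition is given as a description, with no test. RNA-Seq was run on B cells from the spleens of male C57BL/6 mice at 6 stages of differentiation towards plasmablasts, with 2 biological replicates a stage and 12 libraries in all. Naive B cells were sorted as TCRβ- cells with B220, IgM and high IgD, among other markers, and received no stimulus. Activated cells were cultured with lipopolysaccharide (LPS) at 25 μg/ml, a bacterial ligand of the receptor Tlr4. At 3, 10 and 33 h the undivided cells were sorted, as those with the most of a dye that is diluted at each division. On day 4 the cells were sorted into CD22+ CD138- cells, called expanded B cells, and CD22- CD138+ cells, called plasmablasts. All groups are wild-type cells in culture, apart from the naive cells, and no group carries an altered allele. The stages before day 4 hold only undivided cells and the later pair holds divided ones. The day 4 cultures were also kept at a lower cell density than those of 3, 10 and 33 h. Time in culture, division and cell density therefore cannot be told apart. Cells to be activated were isolated by negative selection before culture, whereas naive cells were sorted without it. None of the libraries is of cells cultured without LPS. Between naive cells and any later stage, the effects of LPS, culture and handling therefore cannot be told apart either.

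Schlafen proteins share an N-terminal core. The short members Slfn1 and Slfn2 consist of little else, Slfn3 and Slfn4 carry an added middle part, and the long members Slfn5, Slfn8 and Slfn9 end in a helicase-like domain. The family is named for the German word for sleep: Slfn1 restrains the growth of thymocytes when it is forced on, and T cells that lack working Slfn2 fail to stay quiescent. Several members are interferon-stimulated genes, which means that type I interferon acts, through transcription factors, on a DNA element called the interferon-stimulated response element (ISRE) to switch them on.

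The 7 members lie within 264 kb, at chr11:82951349-83215154 of GRCm38, in the order Slfn5, Slfn9, Slfn8, Slfn2, Slfn1, Slfn4 and Slfn3. Slfn8 and Slfn9 run on the minus strand and the others on the plus strand. The pseudogene Slfn10-ps lies between Slfn8 and Slfn2, and Slfn14 lies beyond Slfn3. The bases before the RefSeq start sites of 4 members (assembly GRCm38.p6, 250 bases each, 5′ to 3′ on the strand of the gene) are shown because the 3 long members hold a core of the ISRE and Slfn1, which fell with them at 3 h, does not. Capitals mark GAAANNGAA, the ISRE core searched for, on either strand. The windows are chr11:82951852-82952101 for Slfn5, which starts inside the annotated span of the gene, chr11:83020811-83021060 for Slfn8, chr11:82991831-82992080 for Slfn9 and chr11:83116570-83116819 for Slfn1.
Slfn5: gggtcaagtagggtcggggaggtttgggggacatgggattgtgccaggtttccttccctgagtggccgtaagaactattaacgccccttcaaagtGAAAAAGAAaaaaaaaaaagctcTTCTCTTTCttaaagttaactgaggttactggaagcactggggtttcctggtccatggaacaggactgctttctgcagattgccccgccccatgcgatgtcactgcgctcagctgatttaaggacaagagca
Slfn8: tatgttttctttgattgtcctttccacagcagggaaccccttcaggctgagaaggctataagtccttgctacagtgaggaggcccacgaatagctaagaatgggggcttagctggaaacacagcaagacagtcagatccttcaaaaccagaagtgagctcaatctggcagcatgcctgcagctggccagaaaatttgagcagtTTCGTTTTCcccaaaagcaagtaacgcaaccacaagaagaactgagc
Slfn9: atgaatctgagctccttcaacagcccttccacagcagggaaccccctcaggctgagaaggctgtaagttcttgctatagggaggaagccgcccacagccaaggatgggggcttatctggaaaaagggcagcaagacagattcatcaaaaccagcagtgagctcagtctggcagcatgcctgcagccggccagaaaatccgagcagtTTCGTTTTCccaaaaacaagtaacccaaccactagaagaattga
Slfn1: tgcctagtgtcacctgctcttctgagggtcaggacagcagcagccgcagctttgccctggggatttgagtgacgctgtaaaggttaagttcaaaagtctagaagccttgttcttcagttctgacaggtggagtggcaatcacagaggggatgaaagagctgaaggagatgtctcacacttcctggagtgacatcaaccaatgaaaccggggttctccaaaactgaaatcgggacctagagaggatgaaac

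Slfn5 held 2 matches, whose first bases lie 155 and 132 bases before the start site. Slfn9 held 1, 44 bases before the start, and Slfn8 held 1, 47 bases before it. A second RefSeq start of Slfn8 lies further downstream, and the same match then lies 135 bases before it. Slfn14 held a match as well, whereas the windows of Slfn1, Slfn2, Slfn3 and Slfn4 had none. Of the 32851 mouse windows of 300 bases (250 before and 50 after a start), 8.56% held this core. The gamma-activated site, searched as TTCNNNGAA, stood in 8.30% of the windows and in none of the members. The core of the ETS-IRF composite element, searched as GGAANNGAA, stood in 8.24% of the windows and, of the members, in Slfn2, with its first base 58 bases before the start. This search and that for the ISRE core differ at their second letter, so 1 run of 9 bases cannot match both. The windows of Slfn8 and Slfn9 were 80.7% identical in a global alignment, and the next most alike pair of members was 45.4% identical. A match of letters is not a site of binding, and its absence from these windows says nothing about bases elsewhere.

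Total counts ran from 23026619 to 60585587 per library, and 12750 genes passed the filter on low counts, among them all 7 members. Levels are given as RPKM, the counts of a gene divided by the length of its exons and by the library size after TMM scaling. In the values below replicate 1 comes before replicate 2. In a library with no count of a gene up to 3 cannot be told from 0, which for Slfn1 is 0.0279 to 0.0901 RPKM depending on the library, and such limits cover counting error only. B cell markers summed to 10469 and 10140 CPM (counts relative to the library size, with no length) in naive cells and to 2583 and 2539 CPM in plasmablasts, whereas 5 plasmablast markers summed to 389 and 362 CPM in naive cells and 16909 and 16396 CPM in plasmablasts. The naive libraries also held RNA of other blood cells. Myeloid markers (16 genes) summed to 311 and 144 CPM there, to 6.38 and 8.62 CPM at 3 h and to 12.1 to 47.0 CPM later, and the 6 erythroid markers measured summed to 197 and 147 CPM there and to at most 2.12 CPM later. T cell markers (14 genes) ran from 1.22 to 9.60 CPM up to the expanded cells and reached 73.7 and 78.5 CPM in plasmablasts. In both plasmablast libraries 4 of them (Cd3e, Cd8a, Thy1 and Themis) stood at 0. Of the plasmablast sums, Cd28 alone gave 64.3 and 71.6 CPM. Trac gave 6.57 and 4.88 CPM there, against 0.339 and 0.435 in naive cells, and Cd3g gave 1.02 and 0.683, against 0.391 and 0.401. The 12 markers of NK and dendritic cells ran from 25.3 to 135 CPM, with Ncr1 and Klre1 at 0 in every library after the naive stage. In a mixed population, fewer cells of a type and less RNA per cell cannot be told apart.

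The replicates of the early stages stood apart in the very genes described here. At 3 h all 7 members were higher in replicate 2, by 0.54 to 1.64 in log2 CPM. At 10 h all 7 were higher in replicate 1, by 0.19 to 2.12, and at 33 h all 7 were again higher in replicate 1, by 0.09 to 1.46. The 45 interferon-stimulated genes tested moved with them: 33 were higher in replicate 2 at 3 h, 44 were higher in replicate 1 at 10 h and 43 at 33 h, with median differences of -0.37, 0.85 and 0.41 (replicate 1 minus replicate 2). Over all tested genes the standard deviation of this difference was 0.53 at 3 h, 0.35 at 10 h and 0.38 at 33 h. In naive cells 31 of that list were higher in replicate 1 (median 0.14), and in expanded cells 30 were (median 0.05). In plasmablasts 29 were higher in replicate 2 (median -0.03). Of the members, 6 were higher in replicate 1 in expanded cells, and 4 were in naive cells and in plasmablasts. Values without single libraries are therefore given beside the calls below, and the part of these differences in the results was not tested.

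**Figure D1:**
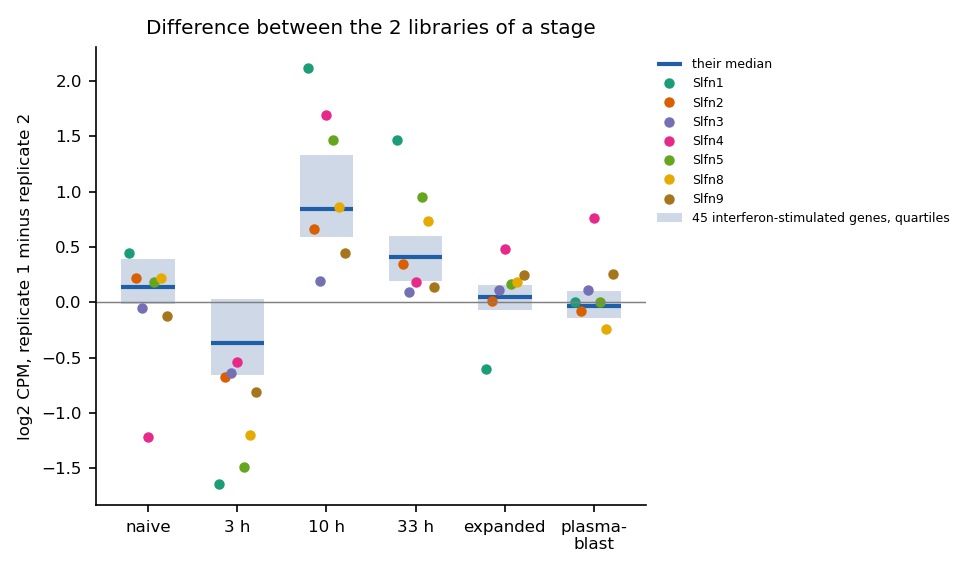
Difference between the replicates of each stage, as log2 CPM of replicate 1 minus replicate 2. Dots are the 7 Schlafen genes, bars span the quartiles of 45 interferon-stimulated genes and blue lines are their medians, which lie at -0.37 at 3 h, 0.85 at 10 h and 0.41 at 33 h. At 3 h all 7 dots lie below 0, and at 10 h and 33 h all 7 lie above it.

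Slfn2 was by far the most abundant member per length. It made up 81.3% to 96.9% of the summed RPKM of the family in every library. The naive libraries gave 331 and 284 RPKM, those of 3 h gave 195 and 312, those of 10 h gave 214 and 135 and those of 33 h gave 311 and 244. Expanded cells had 109 and 107 RPKM and plasmablasts 161 and 169. The order of the means was naive, 33 h, 3 h, 10 h, plasmablasts and expanded cells, and of these neighbours only plasmablasts and expanded cells did not overlap. The widest span between stage means was 2.85-fold, from 307 ± 32.7 (SD, n = 2) in naive cells to 108 ± 0.864 (SD, n = 2) in expanded cells.

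Slfn8 had the next largest share of the family's RPKM in every library up to 33 h. Naive cells had 45.5 and 39.1 RPKM, which dropped to 3.14 and 7.23 by 3 h and returned to 22.3 and 12.3 by 10 h. The 33 h libraries had 23.2 and 13.9 RPKM, expanded cells 2.54 and 2.23, and plasmablasts 1.89 and 2.24. The naive libraries were the highest and did not overlap any other stage, the libraries of 10 h and 33 h overlapped each other, and so did those of expanded cells and plasmablasts. Its share of the family's RPKM went from 11.2% in both naive libraries to 1.11% and 1.25% in plasmablasts. The mean fell 20.5-fold over the series, from 42.3 ± 4.54 to 2.07 ± 0.249 RPKM (SD, n = 2).

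Slfn5, another long member, spanned a wide range. Its RPKM were 17.8 and 15.7 in naive cells, then 0.391 and 1.11 by 3 h, 4.20 and 1.51 by 10 h, and 9.01 and 4.65 by 33 h. Expanded cells had 0.518 and 0.461 RPKM and plasmablasts 0.0354 and 0.0353. The plasmablast values rest on 5 and 6 counts, against 3603 and 2421 in naive cells. Naive libraries were the highest and plasmablasts the lowest with no overlap, whereas 3 h and expanded cells overlapped. The stage means of naive cells and plasmablasts were 473-fold apart.

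Slfn9 followed another order. Naive cells had 3.85 and 4.18 RPKM, the 3 h libraries 0.390 and 0.698, the 10 h libraries 2.01 and 1.47 and the 33 h libraries 7.87 and 7.12. Expanded cells had 2.56 and 2.16 RPKM and plasmablasts 1.94 and 1.63. Its highest stage was 33 h and its lowest 3 h, 13.8-fold apart in the mean, and of the neighbours in the order only plasmablasts and 10 h overlapped.

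Slfn1 was low throughout. Naive cells had 203 and 113 counts of it, the 3 h libraries 4 and 25, the 10 h libraries 120 and 20, and the 33 h libraries 79 and 16. Expanded cells had 0 and 1 count and plasmablasts 0 in both. In naive cells this is 3.23 and 2.36 RPKM, above every other library, and the libraries of 3 h, 10 h and 33 h overlapped. Slfn3 was flat by comparison, with 3.59 and 3.74 RPKM in naive cells, 2.03 and 3.18 by 3 h, 3.97 and 3.47 by 10 h, and 6.79 and 6.36 by 33 h. Expanded cells had 4.69 and 4.35 RPKM and plasmablasts 6.04 and 5.57. Its highest stage mean, 33 h, was 2.52 times its lowest, 3 h. Slfn4, which is known for its expression in macrophages and myeloid precursors, had 5 to 40 counts in every library, or 0.0401 to 0.245 RPKM, and its stages overlapped at every step of their order.

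**Figure D2:**
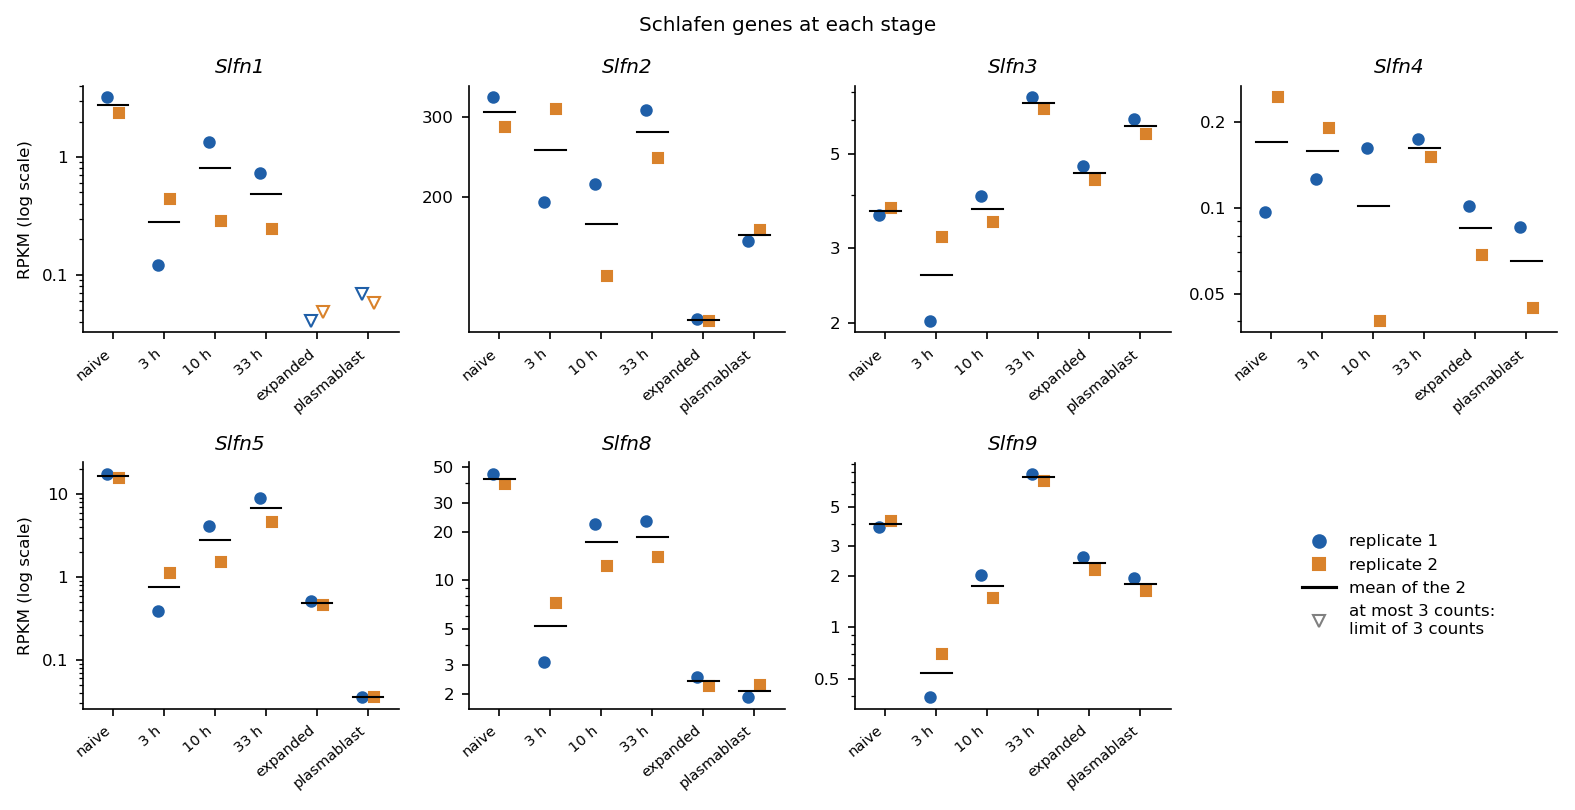
Level of each Schlafen gene in RPKM on a log scale in the 12 libraries, with circles for replicate 1, squares for replicate 2 and a line for their mean. Open triangles stand at the limit of 3 counts where Slfn1 had at most 1 count. Slfn5 and Slfn8 have their highest mean in naive cells and their lowest in plasmablasts, whereas Slfn9 peaks at 33 h with 7.87 and 7.12 RPKM.

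Changes between stages were tested with edgeR's glmTreat on all 12750 genes, which asks whether a change exceeds 1.5-fold, and a gene was called where the Benjamini-Hochberg adjusted p was under 0.05. Log2 fold changes are given with their standard error (SE), each from 2 libraries a stage, and the p-values lean on an estimate of the spread pooled over stages and moderated over genes. Between naive cells and 3 h, 4 of 7 members fell and 0 rose, beside 24.3% of all tested genes that fell and 21% that rose. The median log2 change was -2.82 over the members and -0.03 over all genes. Slfn5 changed most, by -4.39 (SE 0.56, adjusted p = 0.000127), Slfn8 by -3.00 (SE 0.40, adjusted p = 0.000171) and Slfn9 by -2.82 (SE 0.23, adjusted p = 8.17e-07). These 3 calls held in all 4 fits that left out a naive or 3 h library. Slfn1 changed by -3.16 (SE 0.75, adjusted p = 0.00738), and its call was lost without either replicate of 3 h (adjusted p = 0.101 without replicate 1 and 0.0501 without replicate 2). Slfn2, Slfn3 and Slfn4 were not called. The change of Slfn2 was -0.28, with an interval of 2 SE to either side from -0.75 to 0.20, that of Slfn3 was -0.46 (interval -0.84 to -0.08) and that of Slfn4 was -0.01 (interval -1.23 to 1.22). The summed myeloid, erythroid and T cell markers fell over the same step, although Trac of the T cell list rose (1.83, SE 0.35). B cell markers fell too, from 10469 and 10140 CPM in naive cells to 4533 and 4547 CPM at 3 h. Those of NK and dendritic cells went from 49.7 and 48.6 CPM to 25.3 and 28.8 CPM. The part of these marker changes in the falls of the Schlafen genes was not tested.

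From 3 h to 10 h the long members rose again. Slfn5, Slfn8 and Slfn9 were called, 3 of 7, with none lower, beside 17.4% of all tested genes that rose and 13.4% that fell, and the median change was 1.42 over the members and 0.02 over all genes. Slfn9 rose by 1.62 on the log2 scale (SE 0.24, adjusted p = 0.000729 by glmTreat) and kept its call in all 4 fits that left out a library of these stages. Slfn8 rose by 1.71 (SE 0.39, adjusted p = 0.0148), but its call was lost without replicate 1 of 3 h (adjusted p = 0.180) and without replicate 1 of 10 h (adjusted p = 0.101). Slfn5 rose by 1.85 (SE 0.55, adjusted p = 0.0462) and kept its call in 1 of those 4 fits, the one without replicate 2 of 10 h, with an adjusted p of up to 0.375 in the others. Without replicate 1 of 3 h or of 10 h, 1 member was called in place of 3. None of the 3 regained its naive level, since each had a lower value in both 10 h libraries than in either naive library. Slfn1 had a change of 1.42 (interval -0.18 to 3.02) that was not called, was called without replicate 2 of 10 h (2.10, adjusted p = 0.0415) and turned to -0.13 without replicate 1 of 10 h. Slfn2 changed by -0.54 (interval -1.01 to -0.06), Slfn3 by 0.48 (interval 0.11 to 0.86) and Slfn4 by -0.63 (interval -1.81 to 0.56), and none of them was called.

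Between 10 h and 33 h, while the cells remained undivided, Slfn9 went on rising. Its change was 2.10 (SE 0.20, adjusted p = 1.72e-05 by glmTreat), the only call among the members, 1 of 7, beside 10.1% of all tested genes that rose and 4.45% that fell, and it held in every fit without 1 library. The median change was 0.67 over the members and -0.02 over all genes. Slfn8, whose values here share the 33 h libraries with the transition it was chosen on, is described without a test: its mean was 17.3 ± 7.08 RPKM at 10 h and 18.6 ± 6.53 at 33 h (SD, n = 2). Slfn5 changed by 1.25 (interval 0.31 to 2.20, adjusted p = 0.239), and was called without replicate 1 of 10 h (2.19, adjusted p = 0.0195). Slfn2 changed by 0.67 (interval 0.19 to 1.14) and Slfn3 by 0.82 (interval 0.48 to 1.17), and both were called by the F-test for a change of any size but not against 1.5-fold. Slfn1 had a change of -0.69 (interval -2.02 to 0.64) and Slfn4 of 0.63 (interval -0.45 to 1.70).

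From 33 h to expanded cells every member had a lower mean. In this transition, on which the family was chosen, the log2 change was -2.96 for Slfn8, -3.80 for Slfn5, -1.66 for Slfn9, -1.36 for Slfn2, -0.93 for Slfn4 and -0.54 for Slfn3. Slfn1 went from 79 and 16 counts to 0 and 1. As a description with no test, 5 members (Slfn1, Slfn2, Slfn5, Slfn8 and Slfn9) met the threshold used elsewhere, beside 3.66% of all tested genes that fell and 6.94% that rose. Nothing is read from that number, since the family was chosen on this transition. Among the falls of genes whose log2 CPM averaged 5 or more, Slfn8 had rank 3. Above it in that ranking stood Ighd (-4.10), the constant region of the IgD heavy chain, and Icosl (-3.86), the ligand of the costimulatory receptor ICOS. Lfng (-2.62), Cr2 (-2.59) and Rnf144a (-2.56) came next below. Among all 12750 tested genes Slfn8 had rank 69 and Slfn5 rank 29. Slfn1 is given no rank, since its fitted fold rests on 0 and 1 counts in expanded cells. Summed over the members, the family went from 358 and 277 RPKM at 33 h to 119 and 117 RPKM in expanded cells, and Slfn2 was the greater part of that sum at either stage.

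Between expanded cells and plasmablasts, sorted from the same day of culture, Slfn5 alone was called, 1 of 7, beside 12.2% of all tested genes that fell and 13.9% that rose. It changed by -3.77 (SE 1.10, adjusted p = 0.0363 by glmTreat), from 124 and 92 counts to 5 and 6. The call was lost in each of the 4 fits without a library of these stages, although the change itself stayed between -3.86 and -3.69. Of the 10 other settings that tested Slfn5 here, 9 called the fall. Among these was a fit of only the 4 libraries compared (-3.75, SE 0.33, adjusted p = 3.49e-06 by glmTreat). The median change was -0.41 over the members and -0.05 over all genes. Slfn8, described without a test since it shares the expanded libraries with the transition it was chosen on, had 2.38 ± 0.219 RPKM in expanded cells and 2.07 ± 0.249 in plasmablasts (SD, n = 2). Slfn9 changed by -0.41 (interval -0.82 to 0.00), Slfn2 by 0.61 (interval 0.13 to 1.09), Slfn3 by 0.36 (interval 0.01 to 0.71) and Slfn4 by -0.43 (interval -1.91 to 1.06). Slfn1 had at most 1 count in any of these libraries, so that no fold is given.

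Over the whole course, from naive cells to plasmablasts, 4 of 7 members fell and 0 rose, beside 23.4% of all tested genes that fell and 26.6% that rose. This comparison shares its naive libraries with that of naive cells and 3 h. Slfn5 changed by -8.86 (SE 0.84, adjusted p = 8.93e-06 by glmTreat), Slfn8 by -4.35 (SE 0.44, adjusted p = 1.15e-05) and Slfn9 by -1.17 (SE 0.20, adjusted p = 0.00373). Slfn1, at 0 counts in both plasmablast libraries, was at least 44.6-fold lower than in naive cells, with 3 counts per library as the floor (adjusted p = 0.000401). These 4 calls held in all 4 fits that left out a library of these stages. The median change was -1.36 over the members and 0.02 over all genes. Slfn2 changed by -0.90 (interval -1.38 to -0.42, adjusted p = 0.0709) and was not called, although 5 of 11 other settings called it. These were scaling by library size alone (-1.18, adjusted p = 0.0114), a fit of only the 4 libraries (adjusted p = 1.86e-05) and no filter on low counts. The other 2 were the F-test for a change of any size and the Wald test of DESeq2. Slfn3 changed by 0.66 (interval 0.30 to 1.02) and Slfn4 by -1.36 (interval -2.74 to 0.02), and neither was called. Those 2 tests of any size of change did call the rise of Slfn3.

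**Figure D3:**
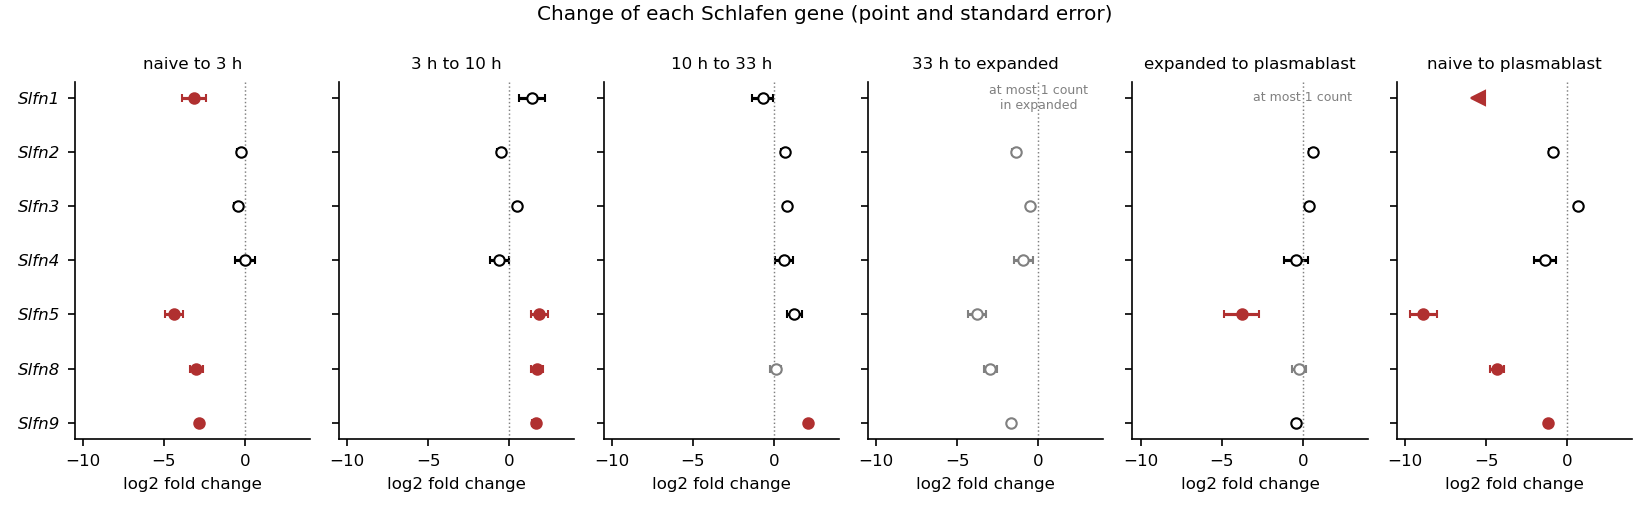
Log2 fold change of each Schlafen gene in the 6 comparisons, with bars of 1 SE. Filled red points passed glmTreat at an adjusted p under 0.05, open points did not, grey points are described without a test because the family was chosen on them, and the triangle is the bound of Slfn1. Falls at 3 h were called for Slfn1, Slfn5, Slfn8 and Slfn9, and rises at 10 h for Slfn5, Slfn8 and Slfn9. Slfn5 reaches -8.86 in plasmablasts.

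Interferon-stimulated genes were followed as the set of which Schlafen genes are commonly held to be part. Of 46 listed, with no Schlafen gene among them, 45 were tested. Of all tested genes 21% rose and 24.3% fell at 3 h, and 17.4% and 13.4% from 3 h to 10 h. From 10 h to 33 h these shares were 10.1% and 4.45%, and from 33 h to expanded cells 6.94% and 3.66%. They were 13.9% and 12.2% between expanded cells and plasmablasts, and 26.6% and 23.4% from naive cells to plasmablasts. At 3 h 28 of the 45 listed genes fell and 1 rose, with a median change of -1.96. Cmpk2 (-4.95, SE 0.45), a mitochondrial nucleotide kinase, and Oas3 (-3.89, SE 0.58), an antiviral oligoadenylate synthetase, fell most, whereas the ubiquitin-like Isg15 rose by 2.32 (SE 0.19). From 3 h to 10 h 26 rose and 0 fell (median 1.65), led by Xaf1 (3.57, SE 0.44) and Herc6 (3.23, SE 0.22). Without replicate 1 of 3 h 16 rose, and without replicate 1 of 10 h 17 did. From 10 h to 33 h 8 rose and 0 fell (median 0.62). The number was 21 without replicate 1 of 10 h and 3 without replicate 2 of 10 h or replicate 1 of 33 h. Ifih1 (1.73, SE 0.17), a sensor of double-stranded RNA, rose most.

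From 33 h to expanded cells 30 of the 45 fell and 0 rose, with a median of -1.65. The number was 18 without replicate 1 of 33 h and 19 without either library of expanded cells. Ifi44 (-5.68, SE 1.32) and Rtp4 (-5.55, SE 0.79) fell most. Between expanded cells and plasmablasts 5 were up and 10 down, with a median of -0.02. Irf7, a transcription factor of the interferon response, rose by 3.36 (SE 0.46) and Isg20, an exonuclease, by 2.94 (SE 0.26), whereas the GTPase Gbp2 changed by -4.05 (SE 0.23). From naive cells to plasmablasts 5 rose and 28 fell (median -1.90).

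**Figure D4:**
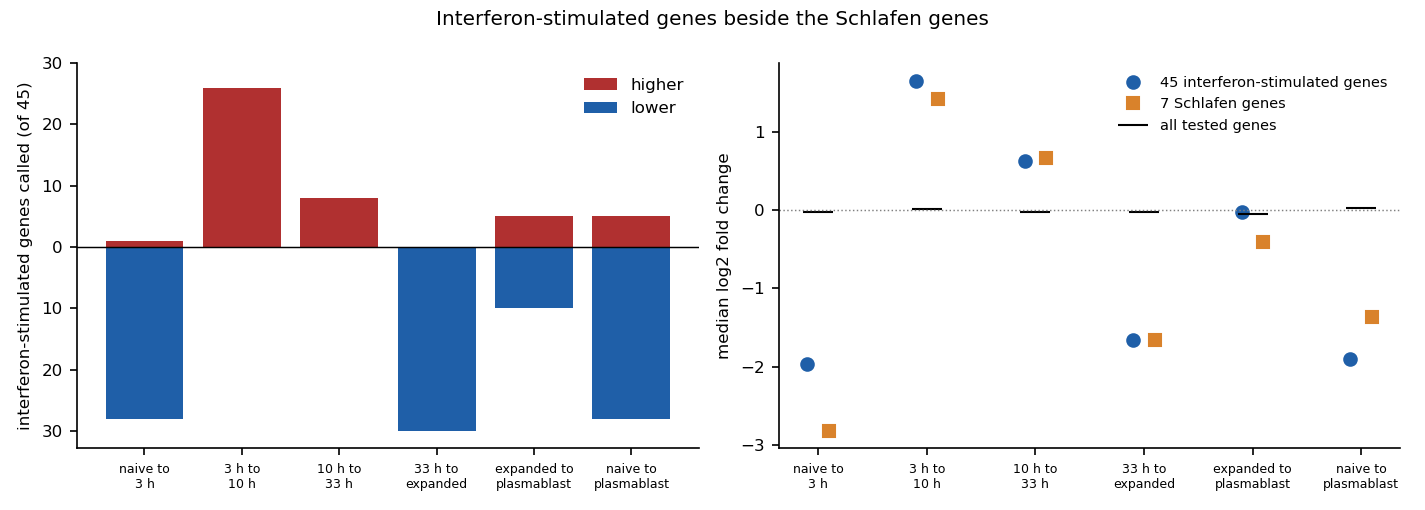
Left, number of 45 interferon-stimulated genes called higher (red, upwards) or lower (blue, downwards) in each comparison. Right, median log2 fold change of these 45 genes (circles), of the 7 Schlafen genes (squares) and of all 12750 tested genes (dashes), where the list moves from -1.96 at 3 h to 1.65 at 10 h while the median of all genes stays near 0.

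Genes of the interferon pathway were listed as well: ligands, receptors, kinases, transcription factors and inhibitors, with Tlr4 and its adaptors. Of 26 listed, 5 of which are also in the list above, 23 were tested, and 7 rose and 6 fell at 3 h (median 0.12). Of all tested genes 21% rose and 24.3% fell at 3 h, and the other shares are those given with the list above. Socs3 (1.54, SE 0.17) and Irf8 (1.30, SE 0.09) rose most. Tlr4, the receptor for LPS, changed by -5.64 (SE 0.35) and Stat2, a subunit of the factor that binds the ISRE, by -2.80 (SE 0.20), the largest falls. From 3 h to 10 h 4 rose and 6 fell, with Tlr4 up by 3.37 (SE 0.38) and Usp18, an inhibitor of interferon signalling, up by 2.42 (SE 0.65), whereas the kinases Jak2 (-1.97, SE 0.10) and Jak1 (-1.52, SE 0.11) fell. From 10 h to 33 h 2 rose and 2 fell. From 33 h to expanded cells 0 rose and 6 fell, beside 6.94% of all tested genes that rose and 3.66% that fell. Usp18 changed by -4.70 (SE 0.71). Between expanded cells and plasmablasts 5 rose and 2 fell, and from naive cells to plasmablasts 2 rose and 10 fell.

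Genes associated with quiescence were listed because Slfn1 and Slfn2 are known for restraint of growth. All 27 were tested, and the shares of all tested genes are those given with the interferon-stimulated genes. At 3 h 2 rose and 14 fell (median -0.94). The 2 that rose were Ccr7 (2.63, SE 0.16) and Foxp4 (1.95, SE 0.12). S1pr1 (-3.97, SE 0.22), the receptor by which lymphocytes leave lymphoid organs, and Txnip (-3.23, SE 0.14), an inhibitor of glucose uptake, fell most. From 3 h to 10 h 1 rose and 9 fell. From naive cells to plasmablasts 2 rose and 16 fell, with Klf2, a transcription factor of resting lymphocytes, at -8.79 (SE 0.33). From 10 h to 33 h 2 rose and 5 fell, from 33 h to expanded cells 2 rose and 2 fell, and between expanded cells and plasmablasts 4 rose and 5 fell.

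Genes around the family were listed too. Within 500 kb of the cluster 30 other genes were listed and 19 tested. At 3 h 5 of the 19 rose and 6 fell (median 0.37), beside 21% and 24.3% of all tested genes. From 3 h to 10 h 4 rose and 3 fell (median -0.23), beside 17.4% and 13.4% of all tested genes. With 19 genes, nothing further is read from these counts. The chemokine genes Ccl3 (7.13, SE 0.46) and Ccl4 (6.69, SE 0.37) rose most at 3 h, and Ccl6 (-10.37, SE 1.17) and Ccl5 (-5.43, SE 0.63) fell most. Of the Schlafen genes that are not members, Slfn10-ps had 0.859 to 4.12 RPKM and fell at 3 h by 1.79 on the log2 scale (SE 0.19), with no call at the 4 later transitions nor between naive cells and plasmablasts. Slfn14 had 1 count in the 12 libraries together and Slfnl1 had 5, and neither was tested.

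The genes whose course was nearest to that of each member were found by the root mean square difference of log2 CPM over the 6 stage means, each gene centred on its own mean, among all tested genes. Nearest to Slfn8 were Syde1 (0.33), Ifi207 (0.38) and Gcnt1 (0.41). Nearest to Slfn5 were Trim30b (0.61), B430306N03Rik (0.70) and Nxpe2 (0.73), and nearest to Slfn1 were Tgtp2 (0.52), Ifi208 (0.61) and Ifi213 (0.67). These distances are larger than those of the flatter members, which have less to differ by. Slfn2 had Susd2 (0.10), Sypl (0.17) and Nr1d1 (0.22), Slfn3 had Tuba4a (0.10), Caskin2 (0.12) and Mtmr4 (0.15), and Slfn4 had Pi4ka (0.14), Pdlim1 (0.15) and Gimap5 (0.16). Nearest to Slfn9 were Itpka (0.32), Sult6b1 (0.35) and Uaca (0.41). Among the members themselves the smallest distances were those of Slfn2 and Slfn4 (0.30), Slfn2 and Slfn3 (0.74), Slfn3 and Slfn4 (0.75) and Slfn1 and Slfn8 (0.83). A small distance between flat genes is common, so ranks among all tested genes are given too. Slfn3 had rank 5260 in nearness to Slfn2, and Slfn4 had rank 5996 to Slfn3. By contrast, Slfn8 had rank 13 to Slfn1 and Slfn4 had rank 22 to Slfn2. No member was among the 3 genes nearest to another. With scaling by library size alone, 1 of the 3 genes nearest to Slfn1 and 2 of the 3 nearest to Slfn5 stayed among the nearest 3, and the mean absolute difference kept 2 of 3 for Slfn4 and for Slfn5.

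Reads of near-identical members can be split between them. Of the stretches of 81 bases, the length of a read, in the transcript of each member, 6.31% in Slfn8 and 8.20% in Slfn9 stood in another transcript, each other and Slfn10-ps among them. The shares were 8.18% for Slfn3, 2.29% for Slfn4 and 1.33% for Slfn2, and 0% for Slfn1. Slfn5 had 8.22%, shared with many unrelated genes, and the antisense gene Slfn5os overlaps it. How reads with several matches or on the opposite strand were counted is not given in the sources used here, so that low values of these genes are uncertain to this extent.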

How the data were processed

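The authors sequenced TruSeq libraries as 81 bp pairs on a NextSeq 500, aligned the pairs with Rsubread (mm10) and assigned them to Entrez genes using featureCounts. The deposited values are these raw counts, with exon lengths and no normalization. Symbols came from RefSeq (25275 of 27179 IDs matched). Mitochondrial, ribosomal RNA, X, Y, variable immunoglobulin and unmatched genes were removed (23700 left), and filterByExpr kept 12750. R 4.3.3, edgeR 4.0.16 (TMM, robust legacy quasi-likelihood dispersions, a one-way layout of all 12 libraries, glmTreat) were used, with DESeq2 1.42.0 as an alternative. The SE is the fold change divided by the root of the F statistic. CPM and RPKM were computed here. The steps were tested on simulated data. The members and gene lists were chosen with earlier results of these data known. All members are named, with the 2 largest rises and falls called in each list as the pool of examples, and the 3 genes nearest to each member.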

Additional observations from a re-analysis of the deposited data

How the results depend on the processing

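Other settings were tried 1 at a time. Scaling used the size factors of DESeq2, or no TMM at all (library size alone). The test was the Wald test of DESeq2 or edgeR's F-test for any size of change. Low counts were not filtered, or a minimum of 10 counts had to be met everywhere. Dispersions were fitted without the robust option or by edgeR's newer method. The model held a term for the replicate number, saw just the 4 libraries of a comparison, or included the removed gene classes, and each library was left out once. The list of interferon-stimulated genes was put through them after the data were seen. No member called in the report turned its direction under any of them. Tests of any size of change called more genes over the 5 successive transitions: 8832, 7824, 5575, 4852 and 6988 by the Wald test and 9052, 7942, 5798, 5053 and 7256 by the F-test, against 5774, 3932, 1855, 1352 and 3329. With both tests 3 members rose from 10 h to 33 h in place of 1, and 2 were called between expanded cells and plasmablasts in place of 1. A minimum of 10 counts in every library left out Slfn1, Slfn4 and Slfn5, and called 2 members at 3 h, 3 from 33 h to expanded cells, 0 between expanded cells and plasmablasts and 2 over the whole course, with 712 genes called from 33 h to expanded cells. Without a filter 2 members rose from 10 h to 33 h, with only 4 libraries 1 rose from 3 h to 10 h, and with the newer method of edgeR 0 were called between expanded cells and plasmablasts. In edgeR's fits without 1 library the members called numbered 3 to 4, 1 to 4, 1 to 2, 3 to 5 and 0 over the transitions and 4 over the whole course. The members counted from 33 h to expanded cells are a description with no test, here and in the other fits, since the family was chosen there. All genes called numbered 5251 to 5682, 3155 to 4234, 1339 to 1593, 855 to 1384, 2587 to 2870 and 5835 to 6084. From 3 h to 10 h the call of Slfn5 was also lost with DESeq2's size factors (adjusted p = 0.0562) and the newer method of edgeR (0.0583), and the calls of Slfn5 and Slfn8 with only 4 libraries (0.0974 and 0.0514). Library size alone shifted the median log2 change of all genes by -0.21 at 3 h, 0.33 from 3 h to 10 h, -0.34 between expanded cells and plasmablasts and -0.28 over the whole course. With the replicate block 5753, 3903, 1853, 1332, 3305 and 6357 genes were called, and the members called numbered 4, 3, 1, 5, 1 and 4, as without it. The block is a number only: over the 15 pairs of stages the correlation of deviations from the stage means ran from -0.14 to 0.08. With at most 40 counts a library, changes of Slfn4 are known only within the intervals given.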
